A study of Mus musculus with 6 samples.

Results

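Genes of cholesterol and fatty acid synthesis were followed in ribosome-bound RNA of the mouse brain after stroke. The set holds 33 genes, taken by symbol from the 12968 genes of the deposited table, and all 33 were found there. They were divided into 7 genes that lead from acetyl-CoA units through mevalonate to squalene and 10 that turn squalene into cholesterol. A further 6 are grouped as regulators through the SREBP transcription factors, and 10 are of fatty acid synthesis, elongation and desaturation. Stard4 is counted among the 6 regulators although it encodes a carrier of cholesterol. The tissue was the middle section of the left brain hemisphere. In 3 mice the middle cerebral artery had been closed for 1 h (MCAO), and 3 control mice had no occlusion. All mice were killed after 3 days. Every sample, controls included, went through RiboTag immunoprecipitation, which pulls down ribosomes that carry an epitope tag in cells with Cre recombinase. The study is about astrocytes by its title. The labels name no Cre driver, strain, sex, age or sham operation, so effects of surgery and of ischemia cannot be told apart. Each library is 1 animal. Replicate numbers only name a library.

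Cholesterol cannot cross from the blood into the brain, so the brain makes its own, and astrocytes supply a large part of it to neurons. The mevalonate branch builds isoprenoid units and joins them into squalene, and later enzymes close the sterol ring and trim it to cholesterol. The SREBP factors are held in the endoplasmic reticulum by SCAP and the INSIG proteins while sterol is plentiful. They are released when sterol is low and then raise transcription of the sterol genes, and SREBP-1 forms raise that of the fatty acid genes. Oligodendrocytes also make much cholesterol and fatty acid for myelin.

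Values are read counts divided by the authors' scale factor of each library, called scaled reads here, and they compare libraries for 1 gene but not genes with each other. Between 882263 reads (MCAO 2) and 9519548 reads (control 1) were recovered per library. Control 2 and MCAO 2 were the shallowest of their groups, though control 3, at 1816934 reads, was close to control 2, at 1538901. Control 2 stood apart from the other controls in the level of astrocyte markers. The summed level of 18 markers of resting astrocytes, such as the glutamate transporter gene Slc1a2, was 52349 scaled reads in control 2 against 88511 in control 1 and 88386 in control 3. After MCAO it was 49116 to 63919, so the groups overlapped. In control 2 the lowest value of the 3 controls was found for 17 of these 18 markers and for 22 of the 33 synthesis genes. MCAO 2 had the highest value of the 3 MCAO libraries for 21 of the 33. The calls and medians below are therefore also given without control 2 and MCAO 2 where they changed, which leaves 2 animals per group. Where control 2 is the lowest control or MCAO 2 the highest MCAO library, leaving it out by itself makes a fall larger. More calls without them are thus no separate support for a fall. In such precipitated RNA, fewer cells of a type, less ribosome-bound RNA per cell and differences in the precipitation cannot be told apart.

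A few enzymes of sterol synthesis fell after MCAO, and no gene of the set rose. Of the 33 genes, 4 fell and 0 rose, all 4 of them enzymes on the way to cholesterol: Idi1, Hmgcs1, Msmo1 and Sqle (limma with Benjamini-Hochberg adjustment over 12549 tested genes, adjusted p under 0.05). Among all tested genes 0.789% fell and 2.3% rose by the same rule. Log2 changes, on the scale log2(scaled reads + 1) and as MCAO minus control, were negative in 30 of the 33 genes (19 with the libraries scaled to their astrocyte markers), with a median of -0.35 against -0.01 over all tested genes. The median was -0.21 over the genes up to squalene, -0.59 from squalene to cholesterol, -0.24 for the SREBP regulators and -0.28 for the fatty acid genes. Without control 2 and MCAO 2 the medians lay closer together, at -0.54, -0.64, -0.43 and -0.45 in the same order. The first median was also -0.12 without control 1, -0.13 without control 3, -0.068 without MCAO 1 and -0.38 without MCAO 2, and that of the regulators -0.14 without control 3 and without MCAO 3. Whether these steps differ from each other was not tested. All 3 MCAO libraries lay below all 3 controls in 13 genes (2, 6, 2 and 3 in the same order of steps) and above them in 0, where 12.5% of tested genes lay below and 12.4% above. An unadjusted p under 0.05 was reached by 14 of the 33, all lower. Among the 12549 tested genes 2420 reached it, 1150 of them lower. On recovered reads edgeR and DESeq2 also found 0 that rose. The count of 4 became 15 without control 2 and MCAO 2, where 1.88% of tested genes fell, and 0 with the libraries scaled to their astrocyte markers, where 0.0956% fell.

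**Figure D1:**
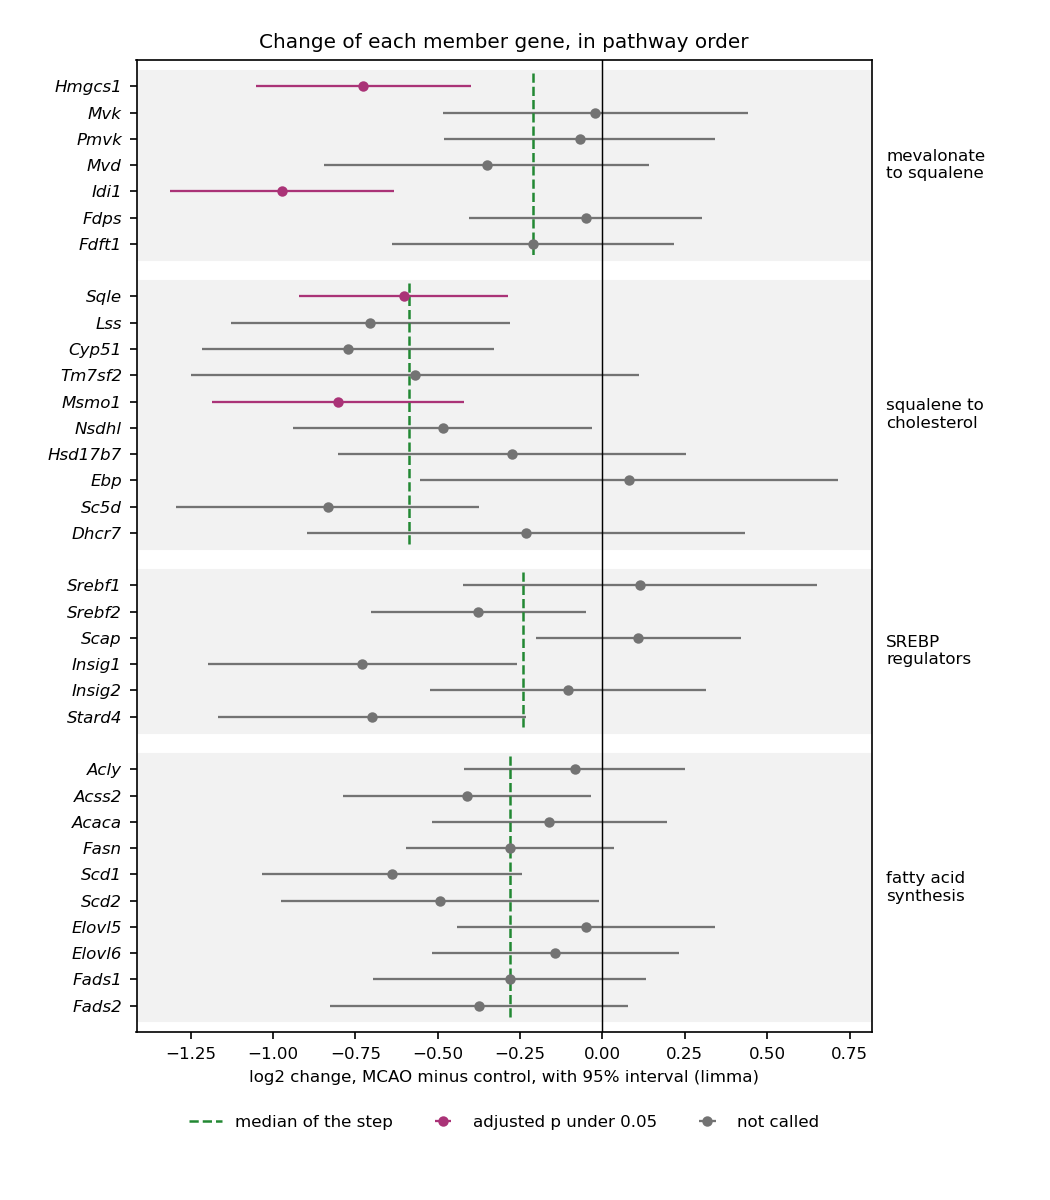
The horizontal axis gives the limma log2 change (MCAO minus control) of each of the 33 genes in pathway order, with its 95% interval, and the dashed line marks the median of each step. The intervals of Idi1, Hmgcs1, Sqle and Msmo1, drawn in purple, belong to the 4 genes with an adjusted p under 0.05, and the step median lies farthest left, at -0.59, from squalene to cholesterol.

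In the mevalonate branch, the genes of HMG-CoA synthase and of the isomerase fell, and the other 5 genes did not pass the test. Idi1 encodes the isomerase that interconverts the isoprenoid building units IPP and DMAPP. It was at 388, 296 and 332 scaled reads in controls 1, 2 and 3 and at 186, 171 and 157 in MCAO 1, 2 and 3. The MCAO libraries were all well below the lowest control, and their mean of 171 ± 14.4 was 50.6% of the control mean of 339 ± 46.1 (SD, n = 3 each). The log2 change was -0.97 (SE 0.16, limma adjusted p = 0.00348). Hmgcs1, which makes HMG-CoA, the precursor of mevalonate, was at 1305, 1561 and 1210 in controls and at 880, 728 and 849 after MCAO. Here control 2 was the highest control, unlike for most of these genes, and the groups again did not overlap (log2 change -0.73, SE 0.15, limma adjusted p = 0.0195). Idi1 lies on chromosome 13 at 8885606 to 8892396 and Hmgcs1 on the same chromosome at 119690351 to 119708260 (RefSeq, GRCm38.p6).

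The other 5 genes up to squalene overlapped between the groups. Mvk, the mevalonate kinase, was at 88.4, 71.0 and 86.0 in controls and at 81.8, 96.4 and 65.3 after MCAO. Its log2 change of -0.02 had a 95% interval of -0.48 to 0.44, so moderate changes in either direction remain possible. Pmvk, the next kinase, had a log2 change of -0.07 (-0.48 to 0.34), and Fdps, which condenses isoprenoid units to farnesyl diphosphate, -0.05 (-0.40 to 0.30). These intervals exclude a halving, a log2 change of -1, and so do those of Mvd, the decarboxylase (-0.35, -0.85 to 0.14), and Fdft1, the squalene synthase (-0.21, -0.64 to 0.22). Of the 7 genes of this branch, only Idi1 and Hmgcs1 have intervals that reach a halving with all 6 libraries. Fdft1 was called without control 2 and MCAO 2, at a log2 change of -0.58 (limma adjusted p = 0.0416).

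SREBP binds promoters of sterol genes close to their start, so the RefSeq windows from 250 bases before to 50 after the start of each gene were searched on both strands. Windows were found for 26 of the 33 genes. The others are Fdps, Fdft1, Sqle, Stard4, Scd1, Scd2 and Fads1. The sterol regulatory element was written as TCACNCCAC and the binding box of NF-Y, a factor that works beside SREBP at many promoters, as CCAAT. The element was found in 1 of the 26 genes, Hmgcs1, and in 1.44% of all 27025 genes with a window. The CCAAT box was found in 22 of the 26 and in 41.1% of all genes. By step it was in 5 of 5 genes up to squalene, 9 of 9 from squalene to cholesterol, 4 of 5 regulators and 4 of 7 fatty acid genes. Such a match describes letters and is not a shown binding site, and no match says only that these letters are not in this window.

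The 250 bases before the start are shown for the fallen genes with a window, so that their letters can be compared. Whether these genes are regulated together was not tested. Capitals mark the CCAAT box, in either strand's reading, and, in Hmgcs1 alone, the sterol regulatory element. Coordinates are of GRCm38.p6, from RefSeq, and each sequence is read along the gene's strand. Hmgcs1 is at chr13:119690101-119690350 (plus strand), Idi1 at chr13:8885356-8885605 (plus strand) and Msmo1 at chr8:64733579-64733828 (minus strand).
Hmgcs1: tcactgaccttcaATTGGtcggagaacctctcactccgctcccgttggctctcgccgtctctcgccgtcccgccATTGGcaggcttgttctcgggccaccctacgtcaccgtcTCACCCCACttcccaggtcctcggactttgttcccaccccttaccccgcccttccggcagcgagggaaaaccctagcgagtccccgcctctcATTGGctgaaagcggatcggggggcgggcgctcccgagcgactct
Idi1: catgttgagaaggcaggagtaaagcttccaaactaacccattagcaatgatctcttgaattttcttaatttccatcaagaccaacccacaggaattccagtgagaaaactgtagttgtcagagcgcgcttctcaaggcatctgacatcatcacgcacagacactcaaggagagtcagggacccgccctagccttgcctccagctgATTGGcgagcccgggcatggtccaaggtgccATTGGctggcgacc
Msmo1: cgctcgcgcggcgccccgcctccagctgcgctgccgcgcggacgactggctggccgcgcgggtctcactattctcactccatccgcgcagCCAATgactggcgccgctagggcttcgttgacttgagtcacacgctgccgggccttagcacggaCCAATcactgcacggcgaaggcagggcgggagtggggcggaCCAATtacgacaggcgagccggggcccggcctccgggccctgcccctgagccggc
In this stretch Hmgcs1 and Msmo1 have 3 CCAAT boxes each and Idi1 has 2. The element of Hmgcs1 starts 137 bases before the gene's start.

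**Figure D2:**
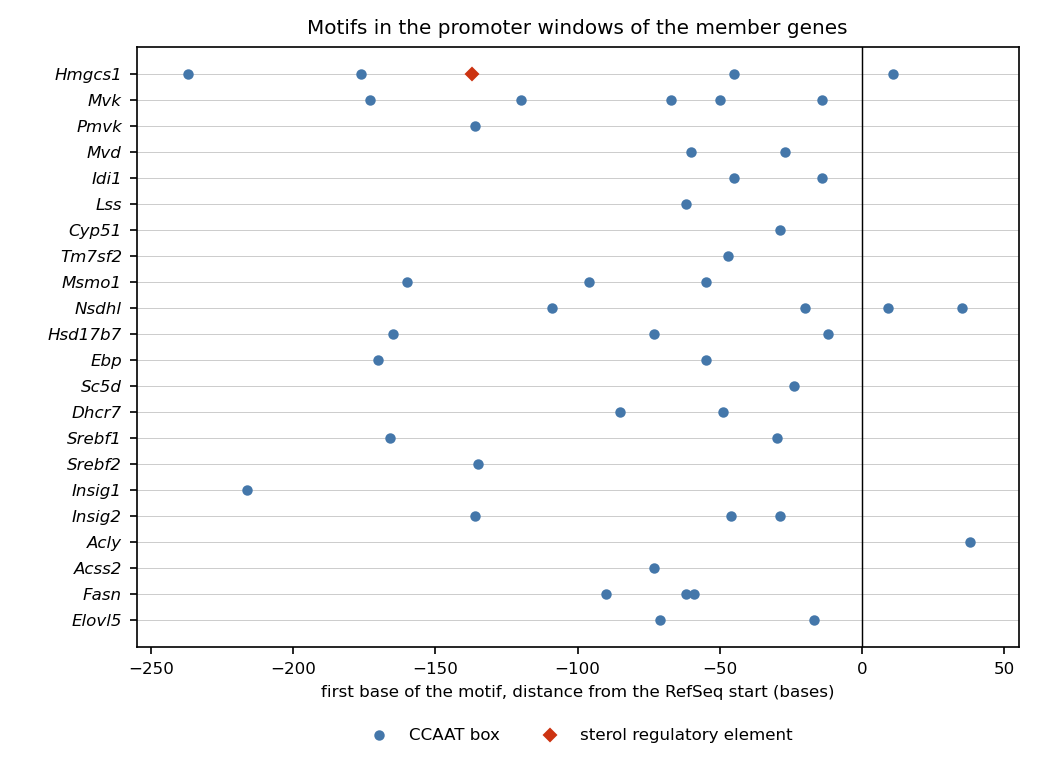
Each point is a motif in the promoter window of a synthesis gene, with the distance of its first base from the RefSeq start in bases on the horizontal axis (negative values lie before the start) and genes in pathway order. Circles are CCAAT boxes, found in 22 genes, and the diamond is the sterol regulatory element, found in Hmgcs1 at -137.

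From squalene to cholesterol, 2 of 10 genes fell and 6 had all MCAO libraries below all controls. Over all tested genes 0.789% fell and 12.5% had all MCAO libraries below all controls. Sqle, squalene epoxidase, opens this branch and is one of its rate-limiting enzymes. It was at 302, 316 and 312 scaled reads in controls, the narrowest control spread of the 33 genes, and at 188, 227 and 198 after MCAO. Its mean went from 310.2 ± 6.91 to 204 ± 20.3 (SD, n = 3 each). The log2 change was -0.60 (SE 0.15, limma adjusted p = 0.0414). Msmo1, which oxidises methyl groups of the sterol ring, was at 594, 394 and 604 in controls and at 304, 330 and 265 after MCAO. Control 2 was the low control, and the lowest control still exceeded the highest MCAO library (log2 change -0.80, SE 0.18, limma adjusted p = 0.0272). Sqle lies on chromosome 15 at 59315092 to 59331193 and Msmo1 on chromosome 8 at 64718123 to 64733578 (RefSeq, GRCm38.p6).

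Sc5d, Cyp51 and Lss came next in order of p and did not pass. Sc5d, the sterol desaturase near the end of the pathway, was at 132, 90.5 and 106 in controls and at 64.7, 52.9 and 63.9 after MCAO, a log2 change of -0.83 (SE 0.21, limma adjusted p = 0.0513). It is the gene just outside the threshold, as Sqle is the gene just inside. Cyp51, the lanosterol demethylase, was at 336, 206 and 329 against 178, 190 and 134. The MCAO values again lie below the lowest control, by a narrow margin to control 2 (log2 change -0.77, SE 0.21, adjusted p = 0.0594). Lss, which closes the ring to lanosterol, was at 149, 133 and 131 against 83.5, 68.4 and 103 (-0.71, SE 0.20, adjusted p = 0.0714).

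The other members of the branch varied more. Nsdhl, a sterol dehydrogenase on the X chromosome, did not overlap between groups and had a log2 change of -0.49 (95% interval -0.94 to -0.03). Tm7sf2, a sterol reductase, was at 46.3, 39.0 and 40.7 in controls and at 19.4, 28.0 and 39.96 after MCAO. MCAO 3 was at the level of the controls, and the value of MCAO 2 rests on 9 reads, the fewest of any of the 33 genes in any library. Dhcr7, the reductase that makes cholesterol from its dehydro precursor, had the widest controls, at 178, 74.5 and 211, with a ratio of 2.84 between the highest and the lowest. After MCAO it was at 100.02, 152 and 113, between these extremes. Ebp, a sterol isomerase, was the one gene of this branch with a positive log2 change, 0.08 (-0.55 to 0.72), which turned negative without control 2 (-0.13) or without MCAO 3 (-0.04), and Hsd17b7, a ketosteroid reductase, had -0.28 (-0.80 to 0.25).

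**Figure D3:**
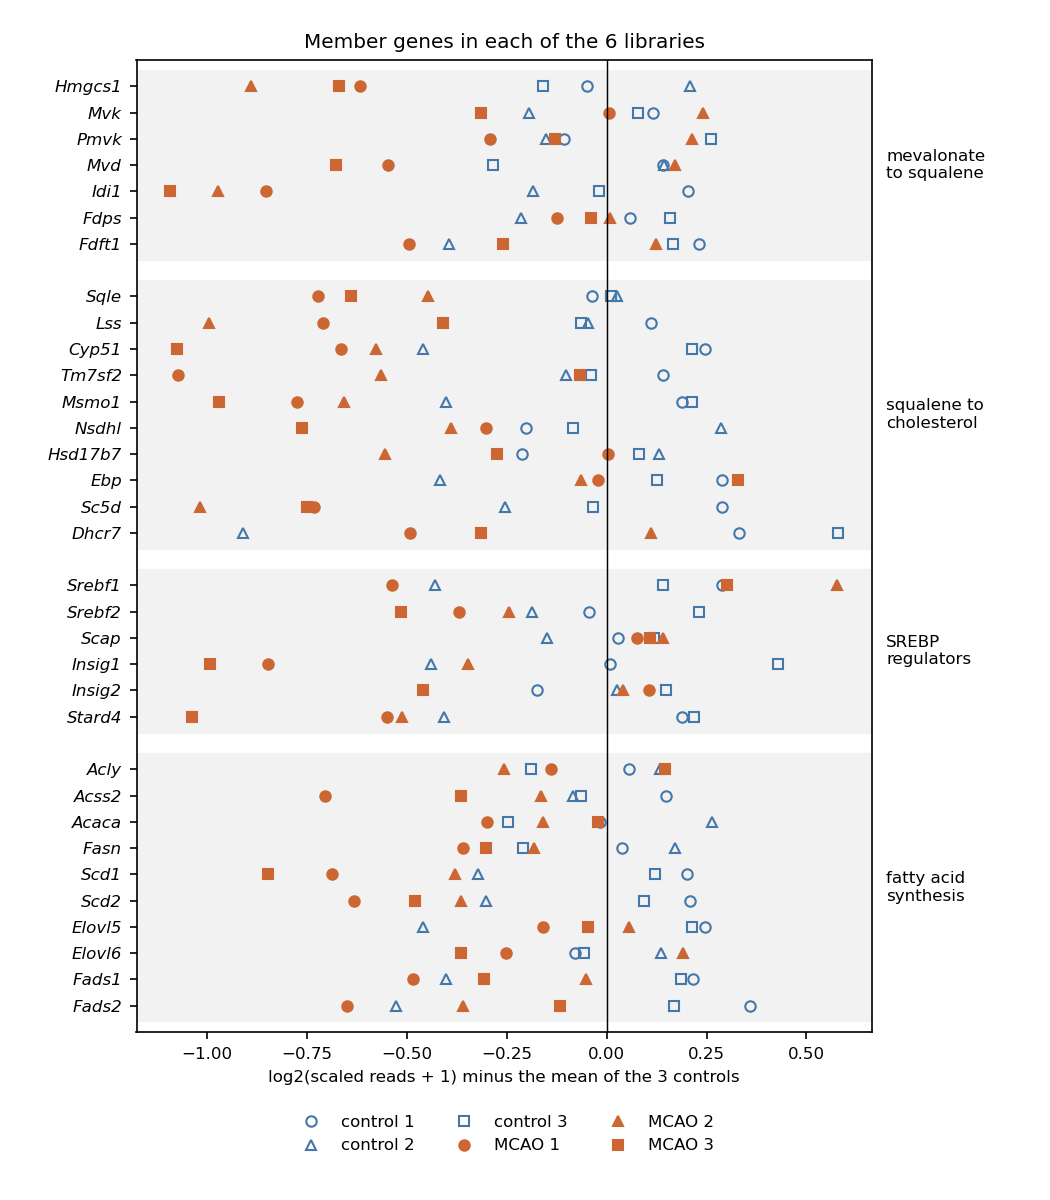
Each row is a gene, and each point is 1 library as its log2(scaled reads + 1) minus the mean of the 3 controls: open blue symbols are controls and filled orange symbols MCAO animals. In Sqle the controls lie close together and apart from all MCAO libraries, while in Dhcr7 control 2 lies below every MCAO library.

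Among the SREBP regulators, Insig1 and Stard4 had log2 changes of a size like those of the fallen enzymes, with wider errors. In limma with all libraries weighted alike 0 of the 6 passed, and 3 had an unadjusted p under 0.05. On recovered reads edgeR and DESeq2 each called 1, Insig1. Limma with library weights called Srebf2, Insig1 and Stard4. Over all 12549 tested genes edgeR called 136 lower, DESeq2 161 and limma with library weights 436. Insig1, which holds SCAP in the endoplasmic reticulum and is itself raised by SREBP, was at 370, 271 and 496 in controls and at 204, 289 and 184 after MCAO. MCAO 2 reached above control 2, so the groups overlapped (log2 change -0.73, SE 0.22, limma adjusted p = 0.0899). Its relative Insig2 was at 120, 138 and 151 against 147, 140 and 98.6 (-0.10, 95% interval -0.52 to 0.32). Stard4, a carrier that moves cholesterol between membranes, was at 178, 117 and 181 against 106, 109 and 75.3 (-0.70, SE 0.22, adjusted p = 0.0999).

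Neither SREBP gene passed the test with all 6 libraries weighted alike. Srebf2, whose protein mainly drives the sterol genes, was at 594, 538 and 718 in controls and at 474, 516 and 428 after MCAO. The groups did not overlap, and the log2 change was -0.38 (SE 0.15, limma adjusted p = 0.199). With library weights it was -0.43 (limma adjusted p = 0.0440). Srebf1, whose protein forms mainly drive fatty acid genes, was at 519, 316 and 469 against 293, 634 and 524. It was high in MCAO 2 and low in MCAO 1, and its log2 change of 0.11 (-0.42 to 0.65) was -0.10 without control 2, -0.12 without MCAO 2, -0.33 without both and -0.10 with library weights. Scap, the sterol sensor and escort of both, was at 279, 247 and 297 against 288, 302 and 295 (log2 change 0.11, 95% interval -0.20 to 0.42).

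Fatty acid genes all had negative log2 changes on the authors' scale, where Acly, Acaca, Elovl5 and Elovl6 turned positive with astrocyte marker scaling. In limma with all 6 libraries weighted alike and in edgeR 0 of 10 passed the test. An unadjusted p under 0.05 was reached by 3, and DESeq2 on recovered reads called 2, Scd1 and Scd2. Limma with library weights called Acss2, Scd1, Scd2 and Fads2. Without control 2 and MCAO 2 limma called 4 of the 10 as lower, Scd1, Scd2, Fads1 and Fads2. Over all 12549 tested genes limma called 99 lower with all 6 libraries weighted alike, and DESeq2 called 161. With library weights limma called 436 of all tested genes lower, and without control 2 and MCAO 2 it called 236. Acly, which makes cytosolic acetyl-CoA from citrate, was at 464, 490 and 391 in controls and at 405, 373 and 494 after MCAO (log2 change -0.08, 95% interval -0.42 to 0.25, positive at 0.07 without control 2 and MCAO 2). Acaca, the carboxylase that commits acetyl-CoA to fatty acids, had -0.16 (-0.52 to 0.19). Fasn, the fatty acid synthase, was at 932, 1022 and 785 against 707, 799 and 736, where MCAO 2 just overlapped control 3 (-0.28, -0.60 to 0.03). Acss2, which makes acetyl-CoA from acetate, was at 240.0, 204 and 207 against 132, 193 and 168. Its groups did not overlap (-0.41, SE 0.18, limma adjusted p = 0.219).

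The desaturase genes Scd1 and Scd2, which put the double bond into stearate and palmitate, were the fatty acid genes with the most negative values. Scd1 was at 3209, 2230 and 3033 in controls and at 1731, 2143 and 1551 after MCAO (log2 change -0.64, SE 0.18, limma adjusted p = 0.0793). Scd2 was at 16149, 11343 and 14914 against 9014, 10849 and 10023 (-0.49, SE 0.23, adjusted p = 0.250). Control 2 was the low control and MCAO 2 the high MCAO library in both, and the groups did not overlap. The 2 genes are close copies, and reads that fit both could be split between them by the counting, which is not described in the sources used here. Fads1 and Fads2, desaturases of polyunsaturated fatty acids, had log2 changes of -0.28 (-0.70 to 0.13) and -0.38 (-0.83 to 0.08). In Fads2 control 2, at 573, lay below MCAO 2 and MCAO 3, at 644 and 762. The elongases had values nearer 0, at -0.05 (-0.44 to 0.34) for Elovl5 and -0.14 (-0.52 to 0.23) for Elovl6. Of the 10 fatty acid genes only Scd1 has an interval that reaches a halving with all 6 libraries. Without control 2 and MCAO 2 the log2 changes were -0.71 for Scd2 (limma adjusted p = 0.0135), -0.60 for Fads1 (0.0136) and -0.65 for Fads2 (0.0302).

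Further genes of the same pathways were followed beside them. Of 41 further genes 40 were in the table and 39 were tested, with a median log2 change of 0.01. No test compared them with the 33 genes. Of these, 1 fell and 1 rose, and both are elongases of very long chains. Elovl2, which extends polyunsaturated fatty acids toward docosahexaenoic acid, fell from 147 ± 16.9 to 75.6 ± 11.04 scaled reads (SD, n = 3 each; log2 change -0.96, SE 0.19, limma adjusted p = 0.0154). Elovl1, which extends saturated chains, rose from 24.8 ± 5.10 to 66.6 ± 7.11 (1.40, SE 0.27, adjusted p = 0.0134). The 3 MCAO libraries lay below all controls for Elovl2 and above them for Elovl1. Elovl1 was not called without control 1 (limma adjusted p = 0.0552) or MCAO 3 (0.0691), and Elovl2 without control 1 (0.0560), control 3 (0.0698) or an intensity trend (0.0696), or with astrocyte marker scaling (0.439). Oligodendrocyte markers were higher in the same libraries, with a summed level of 13230 to 16649 scaled reads after MCAO against 8925 to 10085. So were microglia markers (2662 to 3611 against 725 to 980.2) and reactive astrocyte genes (7757 to 13151 against 1126 to 1509). The part of any of these in the rise of Elovl1 was not tested.

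The further isoprenoid, sterol and SREBP genes showed 0 calls in limma, edgeR and DESeq2. Of 10 genes of isoprenoid branches and sterol turnover the most abundant in these reads were Cyp46a1, the neuronal hydroxylase that clears cholesterol, and Nus1, of dolichol synthesis, with log2 changes of -0.33 (95% interval -0.63 to -0.03) and 0.05 (-0.27 to 0.37). Their list had a median of 0.01, and 1 gene reached an unadjusted p under 0.05. Of 10 further genes of SREBP control and sterol sensing 0 reached it, with a median of -0.04. Erlin2, of the endoplasmic reticulum membrane, had -0.20 (-0.54 to 0.13). The 19 tested further genes of fatty acid metabolism had a median of 0.01. Acsl3 and Acsl6, which activate fatty acids with coenzyme A, had -0.50 (-0.82 to -0.18) and -0.39 (-0.75 to -0.03), with no overlap between groups and limma adjusted p of 0.0866 and 0.225, which became 0.0392 and 0.0323 without control 2 and MCAO 2.

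Resting astrocyte markers moved in part with the synthesis genes. Of 18 markers 0 were called by limma or edgeR and 2 by DESeq2, 5 had an unadjusted p under 0.05, all lower, and their median log2 change was -0.24, with all 18 above the floor in every group. Averaged over genes and relative to the control mean, astrocyte markers stood at 0.26, -0.48 and 0.22 log2 units in controls 1, 2 and 3 and at -0.56, -0.17 and -0.10 in MCAO 1, 2 and 3. The 33 synthesis genes stood at 0.10, -0.18 and 0.08 in controls and at -0.45, -0.25 and -0.41 after MCAO. The genes from squalene to cholesterol stood at 0.11, -0.21 and 0.10 against -0.55, -0.52 and -0.49. Control 2 is thus the lowest control in both kinds of genes. In astrocyte markers MCAO 1 lay below all controls, and MCAO 2 and MCAO 3 lay between control 2 and the other controls. In the synthesis genes MCAO 1, 2 and 3 all lay below the controls. Markers of striatal and other neurons had a median of -0.12, with 3 of 15 fallen (Drd1, Drd2 and Ppp1r1b) and a summed level of 22568 to 26662 after MCAO against 24964 to 28823. Microglia markers were higher, with 14 of 18 risen and summed levels of 2662 to 3611 against 725 to 980.2, and so were 7 of 15 oligodendrocyte markers, with a median of 0.66. For reactive astrocyte genes 7 of 10 rose (summed level 7757 to 13151 against 1126 to 1509), with Lcn2 at the floor in every control. Of 12 endothelial and pericyte markers 6 were tested, with 0 called by limma, edgeR or DESeq2 and 1 at an unadjusted p under 0.05, and of 12 blood myeloid markers 2 were, both risen. The part of any of these cells in the values of the synthesis genes was not tested beyond the scaling given next.

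**Figure D4:**
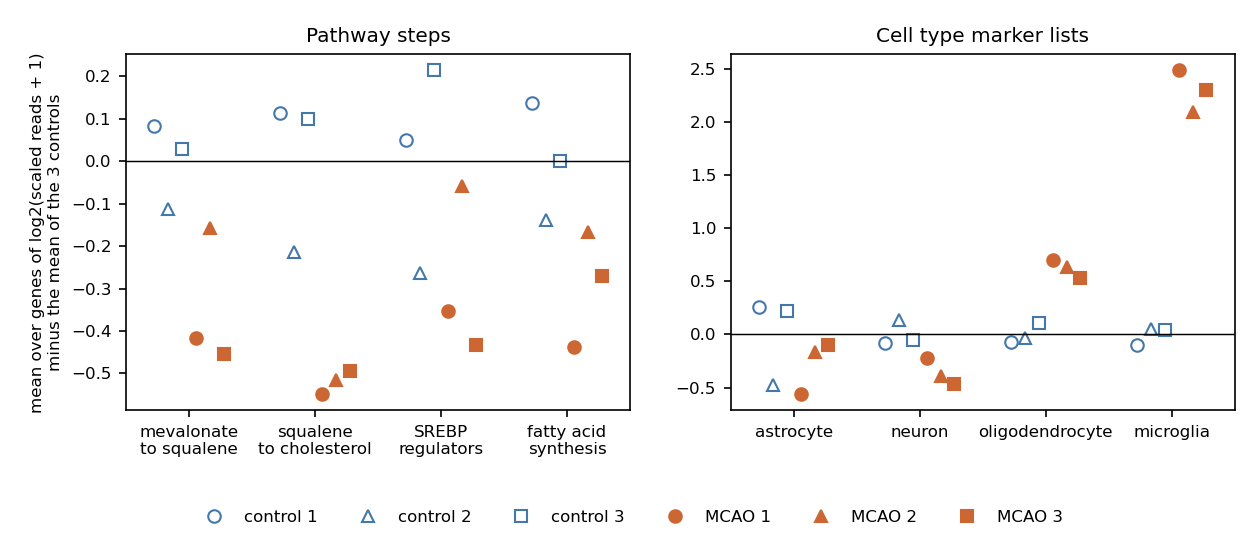
The vertical axis is the mean over genes of log2(scaled reads + 1) minus the mean of the 3 controls, per library, for the 4 pathway steps (left) and for marker lists of 4 cell types (right, on a wider axis). The genes from squalene to cholesterol lie between -0.55 and -0.49 in the MCAO libraries, and control 2 is the lowest control for all 4 steps and for astrocyte markers.

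The number of synthesis genes that passed the test depended on which libraries entered and on the scale. Among the 15 genes that fell without control 2 and MCAO 2 were the 4 named above and Cyp51 (-1.10), Insig1 (-1.14), Stard4 (-0.998), Scd1 (-0.93), Dhcr7 (-0.86) and Srebf2 (-0.54). The other 5 were Sc5d (-0.87, limma adjusted p = 0.0285), Fdft1, Scd2, Fads1 and Fads2. Without control 2 alone 8 fell, where 90 of all 12549 tested genes did. Without control 1 or MCAO 3 only Idi1 fell, where 23 and 28 of all tested genes did. With all 6 libraries 99 tested genes fell. Idi1 was called with any 1 library left out (limma adjusted p 0.00314 to 0.0300), while the other 3 were not called without control 1 (0.0615 for Hmgcs1, 0.113 for Msmo1 and 0.122 for Sqle) or without MCAO 3 (0.0656, 0.115 and 0.131). Nor was Hmgcs1 called without MCAO 2 (0.0751), Msmo1 without control 3 (0.105) or MCAO 1 (0.0582), or Sqle without control 2 (0.0719), control 3 (0.118) or MCAO 1 (0.109). On recovered reads edgeR called 7 genes, all lower, adding Cyp51, Sc5d and Insig1, where 1.08% of tested genes fell.

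Scaling each library to the mean of the resting astrocyte markers removed all 4 calls. On that scale 0 of 33 genes and 0.0956% of tested genes fell, 317 tested genes rose and 12 fell (288 and 99 on the authors' scale), and the median of all genes was 0.26. The synthesis genes had a median of -0.07, as far below that of all genes as on the authors' scale, since this scaling shifts all genes of a library alike. Idi1 stood at -0.70, Sc5d at -0.56, Msmo1 at -0.53, Cyp51 at -0.50 and Hmgcs1 at -0.45. The limma adjusted p on this scale was 0.402 for Idi1 and 0.644 for Hmgcs1. Without an intensity trend in the model 0 of the 33 genes passed, with Idi1 at an adjusted p of 0.0558.

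**Figure D5:**
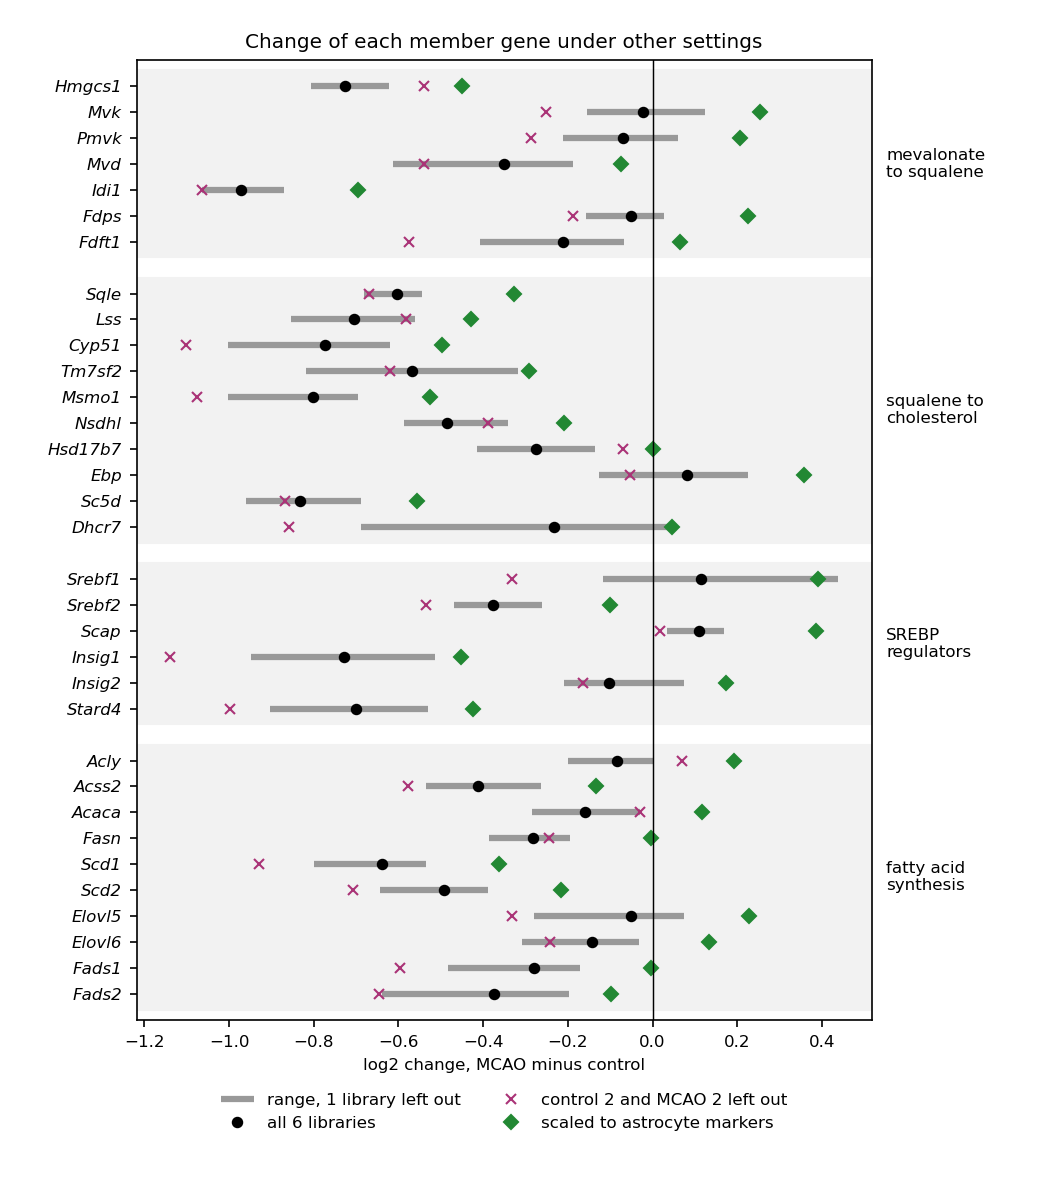
Log2 change (MCAO minus control) of each gene with all 6 libraries (black), the range when 1 library is left out (grey bar), without control 2 and MCAO 2 (purple crosses) and with libraries scaled to the astrocyte markers (green diamonds). Idi1 lies between -1.07 and -0.70 in all of these, and the genes near 0, such as Mvk and Ebp, change sign.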

How the data were processed

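Ribosome-bound polyA RNA of 6 mice was sequenced with Illumina TruSeq libraries, per the labels' protocols. The deposited table holds a normalised signal per gene and library. Per the submitters' processing notes, DESeq2, HISAT2, CASAVA 1.8, R 3.3.1 and Partek 6.6 were used with the mm10 build, in no stated role. How reads were counted, with which strand setting, how libraries were scaled and how technical replicates were joined is not described there. Above a floor of 1, values are whole multiples of 1 step per library, to within 0.1 read for at least 99.95% of them, so reads were recovered by division and 0 stands for the floor. Reads copied by PCR are not independent, so read numbers cover counting error only.

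Tests were made with limma 3.58.1 in R 4.3.3 (empirical Bayes, intensity trend, two-sided) on log2(value + 1) over the 12549 genes whose 6 libraries averaged 10 or more, with Benjamini-Hochberg adjustment over all of them and calls at an adjusted p under 0.05. All 33 genes passed this filter. Alternatives were edgeR 4.0.16 (quasi-likelihood) and DESeq2 1.42.0 on recovered reads, other pseudocounts, filters, scalings and moderation, and left-out libraries. Leaving out a library kept the same genes. The functions were tested on simulated data. The labels pair no animals and name no batch. The genes and lists, and the choice of control 2 and MCAO 2 as an alternative, were made with earlier results of these data known. All 33 genes are named, and of the further lists the called genes and the 2 with the highest mean in each, of which 1 gene is not reported here.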

Additional observations from a re-analysis of the deposited data

How the results depend on the processing

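Of the 33 genes, 0 rose in any alternative, and 4 to 6 fell with another pseudocount, filter, quantile normalisation or robust moderation. The number that fell was 7 with edgeR, 9 with DESeq2, 14 with library weights, 15 without control 2 and MCAO 2, 0 without an intensity trend, 0 with astrocyte marker scaling and 1 to 8 with any 1 library left out. Those with library weights were Idi1, Hmgcs1, Msmo1, Sqle, Lss, Cyp51, Sc5d, Srebf2, Insig1, Stard4, Acss2, Scd1, Scd2 and Fads2. Over all genes, 387 were called, against 157 without a trend (18 lower, 139 higher) and 1002 with weights (436 lower, 566 higher). The count was 520 with edgeR, 549 with DESeq2 (161 lower, 388 higher) and 148 to 306 with 1 library left out. With astrocyte marker scaling the step medians were 0.066 up to squalene, -0.31 from squalene to cholesterol, 0.037 for the regulators and -0.0044 for fatty acid genes, and without control 2 and MCAO 2 they were -0.54, -0.64, -0.43 and -0.45 in the same order. With 1 library left out they ran from -0.38 to -0.068, -0.65 to -0.56, -0.31 to -0.14 and -0.37 to -0.19. Signs turned only in genes that were not called by limma with all 6 libraries weighted alike. With astrocyte marker scaling these were Mvk (0.25), Pmvk (0.21), Fdps (0.23), Fdft1 (0.066), Hsd17b7 (0.0015), Dhcr7 (0.045), Insig2 (0.17), Acly (0.19), Acaca (0.12), Elovl5 (0.23) and Elovl6 (0.13). Among them, Fdft1 and Dhcr7 were called lower without control 2 and MCAO 2 (limma adjusted p = 0.0416 and 0.0105). Ebp turned with quantile normalisation (-0.0047), weights (-0.025) and without control 2 and MCAO 2 (-0.054), Srebf1 with weights (-0.10) and without those libraries (-0.33), and Acly without them (0.069). With 1 library left out, log2 changes ran from -0.15 to 0.12 for Mvk, -0.21 to 0.061 for Pmvk, -0.16 to 0.028 for Fdps, -0.13 to 0.23 for Ebp, -0.69 to 0.058 for Dhcr7, -0.12 to 0.44 for Srebf1, -0.21 to 0.074 for Insig2, -0.20 to 0.0025 for Acly and -0.28 to 0.073 for Elovl5. Among the further genes, Erlin2 stood at 0.072 with astrocyte marker scaling and Nus1 at -0.0057 to 0.12 with 1 library left out. The cause of these changes was not tested. Depth limits Tm7sf2 and Ebp most, with 9 and 11 reads in MCAO 2. No paired analysis was possible because the labels give no number that pairs animals.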
